A study of Mus musculus with 11 samples.

Results

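Complement is a set of plasma proteins, most of them made by hepatocytes, together with the receptors and cell-surface regulators that meet their fragments. The 33 genes described here are components, regulators and receptors on a list chosen with earlier results of these data known. Of these, 31 had a probe set of their own among the 19938 genes measured. C3 and Cfd had no probe set annotated to them alone and were not analysed here, and C1s is carried by its current mouse symbol, C1s1. By the cells usually named as their main source in liver, 18 of the 31 measured genes are hepatocyte-made, 9 are made by macrophages or other myeloid cells, and 4 (C7, Cd55, Cd59a and Clu) have mixed or other sources.

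RNA came from livers of male mice at 14 months of age and was measured on Affymetrix arrays. There were 4 arrays from Mdr2-KO/IL6-KO livers (called the double knockout), which lack both Mdr2 and interleukin-6, 4 arrays from Mdr2-KO livers, which lack Mdr2 alone, and 3 arrays from wild-type livers. The tissue from both knockout groups was labelled as free of tumour, and the sample labels give the strain, C57BL/6, for wild type only. Mdr2 is the protein of Abcb4, the transporter that puts phospholipid into bile, and its loss leads to chronic injury around the bile ducts. Interleukin-6 signals to hepatocytes through the receptor subunit gp130 and STAT3, and is a classical inducer of acute-phase proteins, several complement proteins among them. Whether every array stands for a separate mouse is not stated, so the p-values speak of the spread among these arrays, and their number limits the precision. Wild-type and knockout titles carry differently lettered number series, and whatever these stand for cannot be told apart from genotype.

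Abcb4 read 7.83, 8.14, 8.32 and 8.08 in double-knockout livers, 7.63, 7.81, 7.54 and 7.98 in Mdr2-KO livers, and 9.80, 9.95 and 9.74 in wild-type livers (log2 level, the unit of all levels given here). It was 3.34-fold lower in the double knockout and 4.26-fold lower in Mdr2-KO than in wild type, with no overlap of arrays. Il6 read 1.85 to 2.05 in double-knockout livers, 1.995 to 2.09 in Mdr2-KO livers and 1.62 to 1.995 in wild-type livers, ranges that gave no check of the IL6-KO label. The 8 measured hepatocyte markers had array means of 12.24 to 12.30 in the double knockout, 12.23 to 12.37 in Mdr2-KO and 12.33 to 12.38 in wild type. The double-knockout means thus lay below the wild-type means. Of these 8 markers, 6 had values below 0 in the double knockout against wild type, beside 10010 of all 19938 genes. Arrays did not overlap for 4 lower and 1 higher, against 6.44% and 9.85% of all genes. Only 1, Fgb, was called lower, where 1.28% of all genes were. The median change over the 8 markers was -0.05, with values from -0.56 to 0.22. Markers of some other cells moved with genotype too. In each knockout group against wild type, 3 of 6 bile duct markers and 5 of 8 stellate cell and fibroblast markers were called higher. Of all genes 2.91% were called higher in the double knockout and 0.948% in Mdr2-KO. No Kupffer cell, neutrophil, mesothelial or adipocyte marker was called in any comparison. In whole liver, fewer cells of a type and less RNA per cell cannot be told apart.

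Complement is started in 3 ways. C1q bound to antibody or damaged cells starts the classical pathway through the proteases C1r and C1s, and mannose-binding lectins and ficolins start the lectin pathway through the MASP proteases. Both lead to cleavage of C4 and C2, which together cut C3, while the alternative pathway amplifies C3 cleavage through factor B, factor D and properdin. Cleavage of C5 then releases an attractant for myeloid cells and starts assembly of C6, C7, C8 and C9 into a membrane pore. Factor I, C4b-binding protein, CD55, CD59, vitronectin and clusterin hold these steps in check.

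Of the 31 genes, 4 passed the test in the double knockout against wild type: the terminal components C6 and C7 rose, and the classical and lectin pathway component C4b and the regulator Cfi fell. That comparison called 4.19% of all genes (2.91% higher and 1.28% lower). None of the 31 passed in Mdr2-KO against wild type, where 1.26% of all genes were called, 0.948% higher and 0.316% lower, although 9 of the 31 had an unadjusted p under 0.05 (4 higher, 5 lower), as had 9.79% of all genes (5.69% higher, 4.09% lower). Between the double knockout and Mdr2-KO, 0.00502% of all genes, a single gene (Fgl1, not a complement gene), were called and none of the 31, with 2 of them, C4b and Cfi, lower at an unadjusted p under 0.05, as were 4.82% of all genes in either direction (2.78% higher, 2.04% lower). In the double knockout against wild type, 13 of the 31 had an unadjusted p under 0.05 (4 higher, 9 lower), against 15.5% of all genes (9.4% higher, 6.1% lower). A gene was called in limma at a Benjamini-Hochberg adjusted p under 0.05 over all 19938 genes. The 2 comparisons with wild type share its 3 arrays, so their values stand side by side and are not separate evidence. The median log2 change over the 31 genes was -0.12 in the double knockout and -0.01 in Mdr2-KO, both against wild type, and -0.04 between the knockout groups, beside -0.00, -0.01 and 0.01 over all genes. Arrays did not overlap between the double knockout and wild type for 11 of the 31 genes, 4 higher (C2, C6, C7 and Clu) and 7 lower (C4b, Cfi, Mbl1, Mbl2, Hc, C8a and Vtn), against 16.3% of all genes (9.85% higher, 6.44% lower). Between Mdr2-KO and wild type they were apart for 4, C6 and C7 higher and C4b and Cfi lower, against 9.13% of all genes (5.49% higher, 3.64% lower). Between the knockout groups they were apart for C4b and Cfi, both lower, against 2.51% of all genes (1.6% higher, 0.908% lower). The map of all 31 genes over the 11 arrays shows C4b and Cfi lowest in the double knockout and intermediate in Mdr2-KO.

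**Figure D1:**
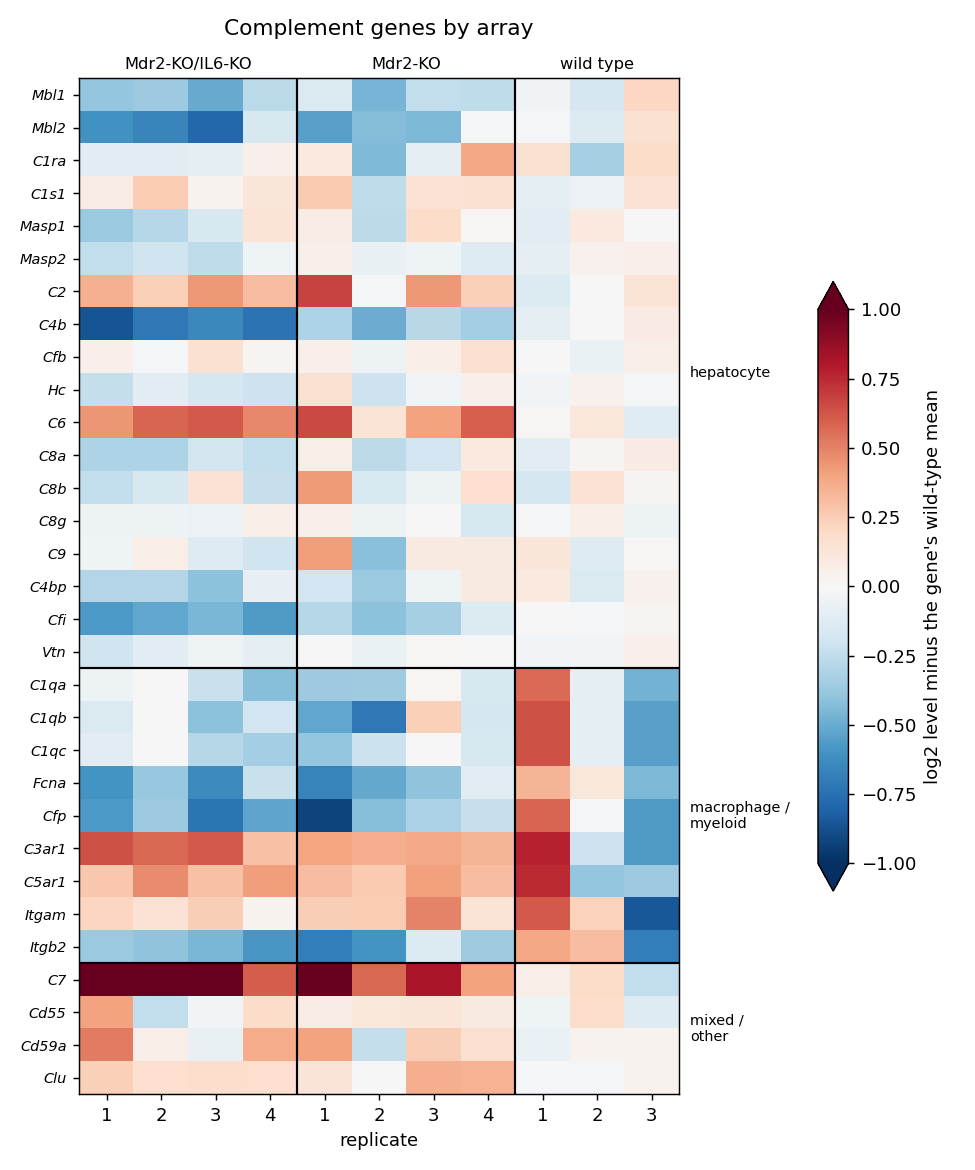
Log2 level of each of the 31 measured complement genes (rows, grouped by source and ordered by role) on each of 11 arrays (columns: Mdr2-KO/IL6-KO, Mdr2-KO, wild type), as the difference from the gene's wild-type mean; the colour scale ends at -1 and 1 and values beyond it take the end colour. C4b and Cfi are lowest in Mdr2-KO/IL6-KO, C6 and C7 are higher in both knockout groups than in wild type, and the macrophage-made genes vary most among the wild-type arrays.

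Complement C4b (chromosome 17) is the functional mouse C4 gene, whose product is cleaved by C1s and MASP-2. It read 10.21, 10.36, 10.43 and 10.34 in double-knockout livers, 10.77, 10.58, 10.80 and 10.74 in Mdr2-KO livers, and 10.99, 11.08 and 11.16 in wild-type livers. The 3 groups did not overlap, with every double-knockout array below every Mdr2-KO array and every Mdr2-KO array below every wild-type array. Its mean was 10.34 ± 0.091 in the double knockout, 10.72 ± 0.099 in Mdr2-KO (SD, n = 4 each) and 11.08 ± 0.089 in wild type (SD, n = 3). The level in the double knockout was 1.67-fold lower than in wild type, a log2 change of -0.74 ± 0.09 (SE) with a limma adjusted p of 0.000466, and its p-value ranked 51st of all genes. In Mdr2-KO it was 1.28-fold below wild type (-0.35 ± 0.09), which missed the threshold at a limma adjusted p of 0.0859. Between the knockout groups C4b was 1.31-fold lower in the double knockout (-0.39 ± 0.08, 95% interval -0.57 to -0.21). Its unadjusted p there was 0.000389, ranked 17th of all genes, and its limma adjusted p was 0.441, so that difference did not pass.

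C4a, a close copy of C4b that the RefSeq table of GRCm38.p6 lists as a transcribed pseudogene, lies on the same chromosome with a single protein-coding gene, Cyp21a1, between them. Its probe set read 7.38, 7.24, 7.18 and 7.21 in double-knockout livers, 8.06, 7.37, 7.71 and 7.69 in Mdr2-KO livers, and 7.996, 8.38 and 8.20 in wild-type livers. Double-knockout arrays lay below all wild-type arrays, while Mdr2-KO replicate 1 overlapped with wild type. C4a was 1.93-fold lower in the double knockout than in wild type (-0.95 ± 0.14, limma adjusted p 0.00178), with a change of -0.48 ± 0.14 in Mdr2-KO (limma adjusted p 0.147). Probes of near-identical copies can pick up each other's RNA, so the C4a values are uncertain as a measure of C4a itself and are not separate support for C4b.

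Factor I, the plasma protease that cuts the active fragments of C3 and C4 when a cofactor holds them, is encoded by Cfi (chromosome 3). It read 10.97, 11.02, 11.09 and 10.98 in double-knockout livers, 11.26, 11.13, 11.21 and 11.41 in Mdr2-KO livers, and 11.54, 11.52 and 11.57 in wild-type livers. As for C4b, the groups were ordered with no overlap. Cfi was 1.44-fold lower in the double knockout than in wild type (-0.53 ± 0.08, limma adjusted p 0.00305). The change in Mdr2-KO was 1.22-fold lower than wild type (-0.29 ± 0.08, limma adjusted p 0.159), and between the knockout groups it was -0.24 ± 0.08 (unadjusted p 0.00957, limma adjusted p 0.981). C4b and Cfi were the only measured complement genes among the 31 whose groups were ordered double knockout, Mdr2-KO, wild type with no overlap, a pattern that 0.15% of all genes had; none had the reverse order, which 0.271% of all genes had. In all 18 alternative settings run, the calls of C4b and Cfi in the double knockout against wild type remained. Averaging the probe sets of a gene, which was among these settings, could not change the levels of C4b and Cfi, since each has a single probe set.

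C6 and C7 are the proteins that first join the terminal complex after C5 is cut, and their genes lie near each other on chromosome 15 with a single protein-coding gene, Mroh2b, between them. Their promoter windows are shown because these neighbours moved the same way. They run from 250 bases before to 50 bases after the annotated start, 5′ to 3′ on the gene's strand, from RefSeq on GRCm38.p6. Capitals mark matches to a STAT motif (TTCNNNGAA) or a TATA motif (TATAAA), searched on both strands.
C6, chr15:4726960-4727259, plus strand: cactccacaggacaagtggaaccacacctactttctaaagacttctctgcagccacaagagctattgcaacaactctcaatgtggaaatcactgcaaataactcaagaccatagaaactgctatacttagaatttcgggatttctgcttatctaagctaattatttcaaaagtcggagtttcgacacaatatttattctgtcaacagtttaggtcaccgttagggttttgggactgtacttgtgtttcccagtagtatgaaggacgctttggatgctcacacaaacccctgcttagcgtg
C7, chr15:5063724-5064023, minus strand: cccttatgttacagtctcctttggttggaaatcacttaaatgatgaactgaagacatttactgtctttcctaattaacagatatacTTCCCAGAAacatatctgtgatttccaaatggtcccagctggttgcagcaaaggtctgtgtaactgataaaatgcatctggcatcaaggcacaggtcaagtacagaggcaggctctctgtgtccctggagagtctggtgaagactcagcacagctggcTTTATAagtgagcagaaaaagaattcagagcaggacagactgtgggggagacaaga
The C7 window holds TTCCCAGAA, whose leading base is at -164 relative to the start, and a TATA match on the other strand at -6. The C6 window holds neither motif, nor a C/EBP motif (TTGCNNAA). Among all 32851 promoter windows of this length, 8.3% hold the STAT motif, 10.8% the C/EBP motif and 13.6% the TATA motif. A match describes letters in a window and not a bound site. Of 33 listed genes, 25 had windows in the table, 27 in all, of which 5 held the STAT motif (C1ra, C7, C8a, Masp2 and Vtn), 4 the C/EBP motif and 5 the TATA motif. C4b and Cfi had no window there and were not searched.

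C6 read 10.25, 10.39, 10.42 and 10.29 in double-knockout livers, 10.47, 9.95, 10.21 and 10.41 in Mdr2-KO livers, and 9.82, 9.92 and 9.69 in wild-type livers. Every knockout array was above every wild-type array, the nearest being Mdr2-KO replicate 2. C6 rose 1.44-fold in the double knockout against wild type (0.53 ± 0.12, limma adjusted p 0.0235). In Mdr2-KO it was 1.37-fold above wild type (0.45 ± 0.12), with a limma adjusted p of 0.102. Without Mdr2-KO replicate 2 the Mdr2-KO change was 0.55 ± 0.10 and passed (limma adjusted p 0.0131). The double knockout and Mdr2-KO differed in C6 by 0.07 (95% interval -0.16 to 0.31). C6 lost its call in the double knockout without wild-type replicate 1 or 3, or double-knockout replicate 2 or 3, at limma adjusted p-values of 0.0667 to 0.113.

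C7 is made by stromal and other cells as well as in liver parenchyma, and read 6.51, 6.48, 6.48 and 6.08 in double-knockout livers, 6.83, 6.05, 6.29 and 5.88 in Mdr2-KO livers, and 5.54, 5.66 and 5.23 in wild-type livers. All knockout arrays were above all wild-type arrays, with a spread among the Mdr2-KO arrays (SD 0.417) wider than in the double knockout (0.206) or wild type (0.220). C7 had the largest change of the 31 genes, 1.88-fold higher in the double knockout than in wild type (0.91 ± 0.19, limma adjusted p 0.0177). In Mdr2-KO it was 1.72-fold above wild type (0.78 ± 0.19, limma adjusted p 0.0808), which passed without Mdr2-KO replicate 4 (0.91 ± 0.19, limma adjusted p 0.0448). The knockout groups differed by 0.12 (95% interval -0.26 to 0.51). Its call in the double knockout was lost without wild-type replicate 1 or 3, or double-knockout replicate 1, 2 or 3, at limma adjusted p-values of 0.0519 to 0.0908. Stellate cell and fibroblast markers lay higher in the same livers, with array means of 7.62 to 7.90 in the double knockout, 7.47 to 7.74 in Mdr2-KO and 6.81 to 7.10 in wild type. Of these 8 markers, Pdgfrb, Pdgfra, Col1a1, Col3a1 and Lum were called higher in both knockout groups, and the part of the markers in the C7 change was not tested.

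**Figure D2:**
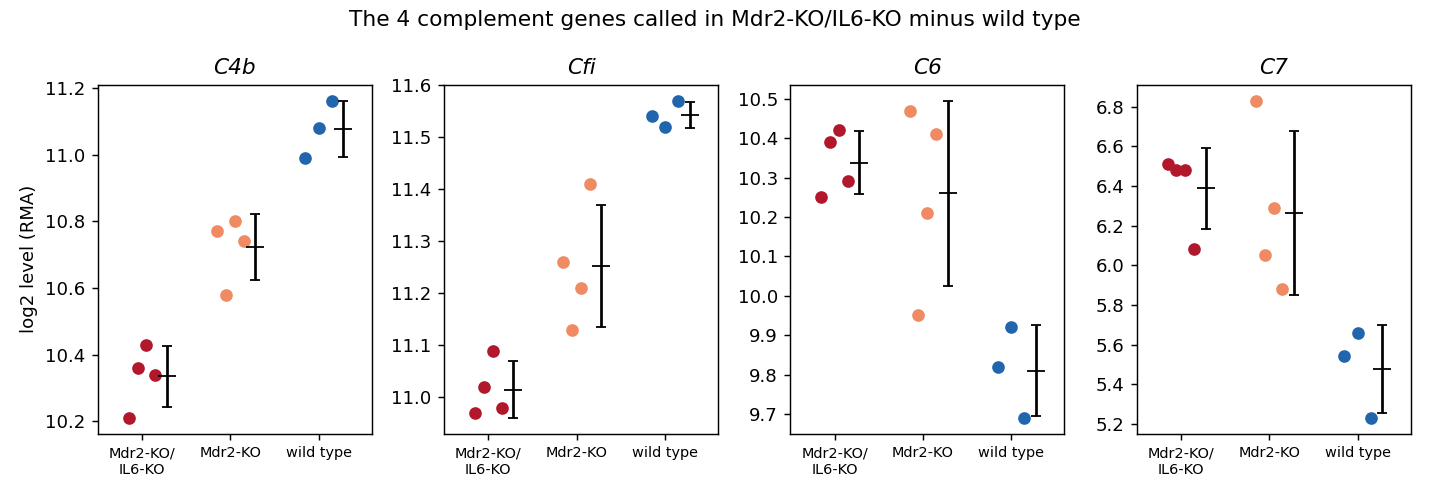
Log2 level of C4b, Cfi, C6 and C7 on each array (points) with the group mean and SD (line and bar) for Mdr2-KO/IL6-KO (n = 4), Mdr2-KO (n = 4) and wild type (n = 3). C4b and Cfi are lowest in Mdr2-KO/IL6-KO, intermediate in Mdr2-KO and highest in wild type without overlap, and C6 and C7 lie higher in both knockout groups than in wild type.

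None of the other terminal components was called. Hc, which encodes C5, read 11.28, 11.41, 11.35 and 11.31 in double-knockout livers, 11.67, 11.31, 11.49 and 11.57 in Mdr2-KO livers, and 11.49, 11.56 and 11.50 in wild-type livers. Its double-knockout arrays lay below the wild-type arrays, by -0.18 ± 0.09 (limma adjusted p 0.392), and its change against Mdr2-KO was -0.17 ± 0.08 (unadjusted p 0.0602, limma adjusted p 1). C8a, a subunit of C8, also had all double-knockout arrays below wild type, at 10.84 to 10.97 against 11.04 to 11.23, a change of -0.27 ± 0.10 that did not pass (limma adjusted p 0.213). C8b, C8g and C9 changed by -0.12, -0.03 and -0.08 in the double knockout and by 0.10, -0.04 and 0.05 in Mdr2-KO, each against wild type. The 95% interval of C9 in the double knockout ran from -0.41 to 0.26. C9 lies on chromosome 15 with C6 and C7, beyond 6 further protein-coding genes.

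Among the recognition molecules all 6 measured genes had values below wild type in both knockout groups, and none passed; of all 19938 genes 10010 were below 0 in the double knockout and 10300 in Mdr2-KO. The count rests on 1 array, since C1qa, C1qb and C1qc were above 0 in both groups without wild-type replicate 1. The mannose-binding lectins, which bind sugars on microbes and damaged cells, came nearest. Mbl2 read 9.84, 9.79, 9.66 and 10.29 in double-knockout livers, 9.90, 10.01, 9.997 and 10.43 in Mdr2-KO livers, and 10.43, 10.31 and 10.60 in wild-type livers. The double-knockout arrays were all below wild type, the Mdr2-KO arrays were not, and the change was -0.55 ± 0.16 (limma adjusted p 0.0702). In Mdr2-KO the Mbl2 change was -0.36 ± 0.16 (limma adjusted p 0.444), and between the knockout groups it was -0.19 ± 0.14 (unadjusted p 0.215). Mbl1 read 8.85, 8.87, 8.73 and 8.97 in double-knockout livers, 9.09, 8.77, 8.99 and 8.98 in Mdr2-KO livers, and 9.20, 9.07 and 9.44 in wild-type livers. Its changes against wild type were -0.38 ± 0.11 in the double knockout (limma adjusted p 0.0745) and -0.27 ± 0.11 in Mdr2-KO (limma adjusted p 0.377). Both lectins came under the threshold in the double knockout with only the brighter genes tested, with a trended robust eBayes step or with array weights, at limma adjusted p-values of 0.0181 to 0.05. The same held for Mbl1 under quantile normalization (0.0362) and without Mdr2-KO replicate 2 (0.0471), and for Mbl2 without Mdr2-KO replicate 4 (0.0458) or double-knockout replicate 4 (0.0152). Neither lectin was called in the remaining settings. Without wild-type replicate 3 the change was -0.28 for Mbl1 (limma adjusted p 0.309) and -0.47 for Mbl2 (limma adjusted p 0.254).

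None of the initiating proteases was called. Masp2, the lectin pathway protease that cuts C4 and C2, read 9.93, 9.98, 9.92 and 10.13 in double-knockout livers, 10.23, 10.10, 10.13 and 10.05 in Mdr2-KO livers, and 10.08, 10.22 and 10.23 in wild-type livers. The ranges overlapped, and its change in the double knockout was -0.19 ± 0.09 against wild type (limma adjusted p 0.314) and -0.14 ± 0.08 against Mdr2-KO (unadjusted p 0.108). C1s1, the classical protease that cuts the same 2 proteins, read 10.06, 10.24, 10.02 and 10.11 in double-knockout livers, 10.25, 9.73, 10.13 and 10.14 in Mdr2-KO livers, and 9.90, 9.93 and 10.13 in wild-type livers. It changed by 0.12 ± 0.12 in the double knockout and by 0.07 ± 0.12 in Mdr2-KO (limma adjusted p 0.936), with overlapping arrays. Masp1 and C1ra changed by -0.17 and -0.07 in the double knockout against wild type, and by 0.00 and -0.01 in Mdr2-KO. C1ra has a copy, C1rb, and a probe set annotated to both was not used.

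C2 and Cfb, which encode parts of the convertases, were not called. C2, which joins the C4 fragment in the classical C3 convertase, read 8.45, 8.33, 8.53 and 8.40 in double-knockout livers, 8.77, 8.07, 8.53 and 8.33 in Mdr2-KO livers, and 7.96, 8.09 and 8.23 in wild-type livers. Its double-knockout arrays lay above wild type, a change of 0.33 ± 0.14 that did not pass (limma adjusted p 0.25), and its Mdr2-KO change was 0.33 ± 0.14 (limma adjusted p 0.425) with overlap. Factor B, the alternative pathway counterpart of C2 and an acute-phase protein, is encoded by Cfb. Cfb averaged 11.82 ± 0.071 in the double knockout, 11.83 ± 0.086 in Mdr2-KO (SD, n = 4 each) and 11.77 ± 0.072 in wild type (SD, n = 3), and its 95% interval in the double knockout against wild type ran from -0.13 to 0.23. C2 and Cfb are direct neighbours on chromosome 17, with 4 protein-coding genes between Cfb and C4a.

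Besides Cfi, no measured regulator was called. C4bp, the cofactor for factor I in cutting the C4 fragment, changed by -0.28 ± 0.12 in the double knockout (limma adjusted p 0.267) and by -0.14 ± 0.12 in Mdr2-KO against wild type. Clu, the chaperone that binds the soluble terminal complex, read 12.21, 12.14, 12.15 and 12.14 in double-knockout livers, 12.10, 11.98, 12.34 and 12.32 in Mdr2-KO livers, and 11.96, 11.95 and 12.01 in wild-type livers. Double-knockout arrays were above wild type by 0.19 ± 0.10 (limma adjusted p 0.385), and the Mdr2-KO change was 0.21 ± 0.10 (limma adjusted p 0.485). Vtn, whose product vitronectin binds the same complex, had all double-knockout arrays (12.44 to 12.59) just below wild type (12.61 to 12.69), a change of -0.11 ± 0.08 (limma adjusted p 0.574). Cd55 and Cd59a, the membrane-bound inhibitors of the convertases and of pore formation, changed by 0.08 and 0.22 in the double knockout and by 0.10 and 0.14 in Mdr2-KO, with overlapping arrays.

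**Figure D3:**
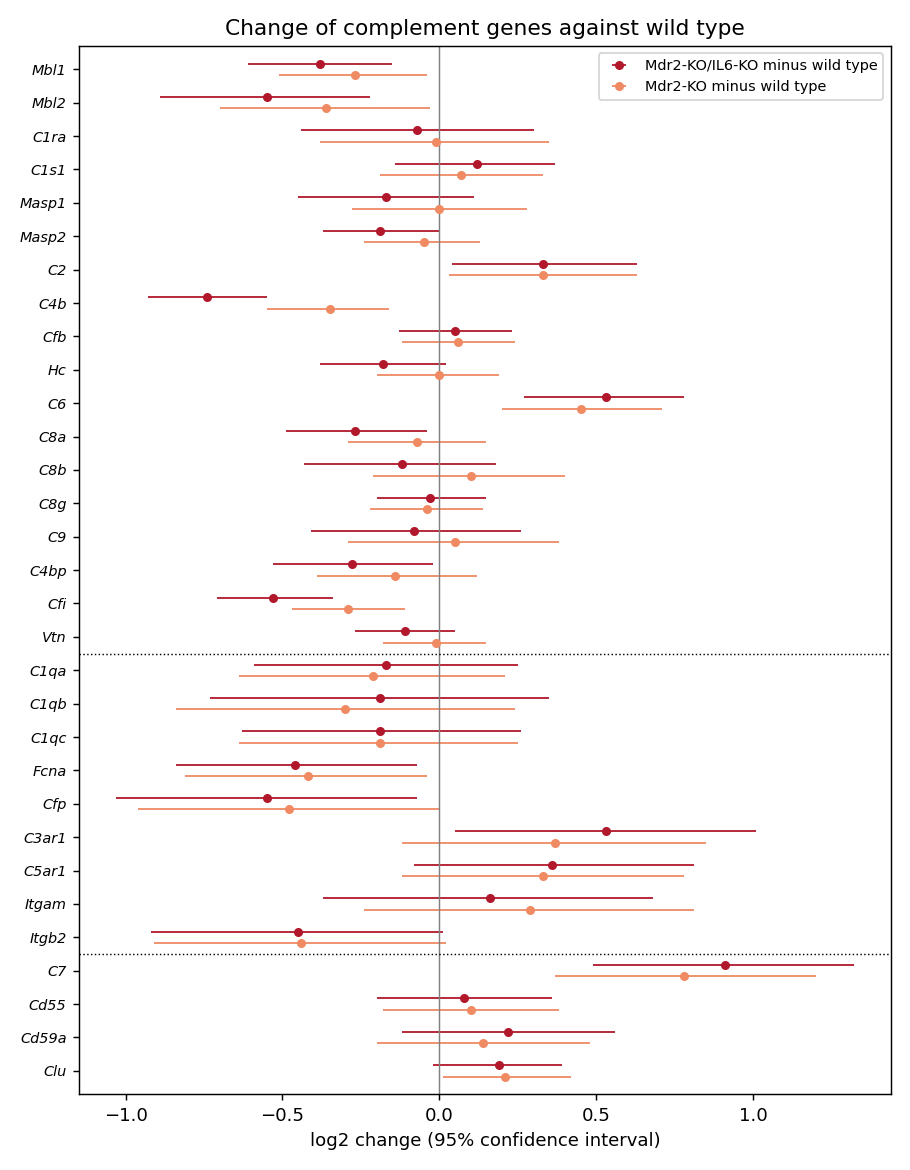
Log2 change against wild type with its 95% interval for each of the 31 genes, grouped by source and ordered by role, in Mdr2-KO/IL6-KO and in Mdr2-KO. Points are drawn alike whether called or not. The genes called in Mdr2-KO/IL6-KO are C4b and Cfi, to the left of 0, and C6 and C7, to the right. None of the 31 is called in Mdr2-KO.

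By source, 14 of the 18 hepatocyte-made genes had values below 0 in the double knockout against wild type (median -0.15), beside 10010 of all 19938 genes. Of the 18, 1 was called higher and 2 lower, where 2.91% of all genes were called higher and 1.28% lower. Against Mdr2-KO 14 of 18 were below 0 (median -0.13, none called), beside 9193 of all genes. In Mdr2-KO against wild type 11 of 18 were below 0 (median -0.01), beside 10300 of all genes. Array means of the 8 hepatocyte markers were also lower in the double knockout than in wild type (12.24 to 12.30 against 12.33 to 12.38). The median change over these markers was -0.05, with values from -0.56 to 0.22. Only Fgb was called lower, so the array means need not describe all 8 markers. Their part in the values of the 18 genes was not tested. Averaged over the 18 genes, double-knockout arrays lay -0.20, -0.16, -0.14 and -0.09 from the wild-type mean, Mdr2-KO arrays 0.08, -0.24, -0.02 and 0.06, and wild-type arrays -0.03, -0.03 and 0.06. The double-knockout arrays were all below the wild-type arrays, and the lowest array of all was Mdr2-KO replicate 2. That array was the lowest of its group for 15 of the 18 hepatocyte-made genes, against 25.2% of all genes, and had the lowest array weight in limma (0.424). Without it, 17 of the 18 were below 0 in the double knockout against Mdr2-KO (median -0.21), and the Mdr2-KO median against wild type was 0.03. Leaving out another Mdr2-KO array moved the values the other way: without replicate 1, 13 of 18 were below 0 in the double knockout against Mdr2-KO (median -0.10) and 14 of 18 in Mdr2-KO against wild type (median -0.06), and without replicate 4 the median between the knockout groups was -0.09.

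The 9 genes made by macrophages and other myeloid cells were the most spread among the wild-type arrays. These are the 3 chains of C1q, ficolin A (Fcna), properdin (Cfp), the receptors for the C3 and C5 fragments (C3ar1 and C5ar1) and the chains of complement receptor 3 (Itgam and Itgb2). All 9 had their largest SD in wild type, as had 1 of 18 hepatocyte-made genes and 23.8% of all genes. Their median SD was 0.161 in the double knockout, 0.182 in Mdr2-KO and 0.596 in wild type, while the hepatocyte-made genes had 0.087 in the double knockout, 0.185 in Mdr2-KO and 0.109 in wild type. Averaged over the 9 genes, double-knockout arrays lay -0.08, 0.01, -0.18 and -0.17 from the wild-type mean, Mdr2-KO arrays -0.29, -0.21, 0.08 and -0.05, and wild-type arrays 0.59, -0.03 and -0.56. Wild-type replicate 1 thus lay above, and replicate 3 below, all 8 knockout arrays. Markers of Kupffer cells, the resident macrophages of liver, had the same wide spread: 10 of 10 had their largest SD in wild type. Replicate 3 was again the lowest wild-type array, at -0.81 from the wild-type mean, with replicate 2 at 0.50 and replicate 1 at 0.30. The array means of these markers ran from 6.95 to 7.30 in the double knockout, 6.85 to 7.5 in Mdr2-KO and 6.64 to 7.96 in wild type. No Kupffer marker was called in any comparison, and their part in the spread of the 9 genes was not tested.

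C1qa, a chain of the classical pathway's recognition molecule, read 8.86, 8.92, 8.69 and 8.49 in double-knockout livers, 8.55, 8.56, 8.93 and 8.75 in Mdr2-KO livers, and 9.48, 8.82 and 8.44 in wild-type livers. The knockout arrays lay inside the wild-type range, and so did all but 1 of the knockout arrays of C1qb and all those of C1qc. C1qa, C1qb and C1qc, direct neighbours on chromosome 4, changed by -0.17, -0.19 and -0.19 in the double knockout and by -0.21, -0.30 and -0.19 in Mdr2-KO. Without wild-type replicate 1 these values turned to 0.11, 0.13 and 0.13 in the double knockout and to 0.07, 0.02 and 0.12 in Mdr2-KO. The sign of the C1q change thus rested on a single wild-type array.

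C3ar1 read 7.01, 6.95, 6.99 and 6.67 in double-knockout livers, 6.77, 6.74, 6.75 and 6.71 in Mdr2-KO livers, and 7.14, 6.17 and 5.81 in wild-type livers. All knockout arrays lay between wild-type replicate 1 and the other 2 wild-type arrays. Its change was 0.53 ± 0.22 in the double knockout (limma adjusted p 0.263) and 0.37 ± 0.22 in Mdr2-KO (limma adjusted p 0.677), each against wild type. Without wild-type replicate 1 it was 0.92 ± 0.13 in the double knockout (limma adjusted p 0.00267) and 0.75 ± 0.13 in Mdr2-KO (limma adjusted p 0.0187). C5ar1 read 5.07, 5.27, 5.09 and 5.22 in double-knockout livers, 5.11, 5.06, 5.21 and 5.11 in Mdr2-KO livers, and 5.55, 4.41 and 4.44 in wild-type livers. Its knockout arrays lay between the wild-type arrays in the same way, with changes of 0.36 ± 0.21 in the double knockout (limma adjusted p 0.462) and 0.33 ± 0.21 in Mdr2-KO (limma adjusted p 0.705). Without that wild-type array the C5ar1 changes were 0.74 ± 0.10 (limma adjusted p 0.00199) in the double knockout and 0.70 ± 0.10 (limma adjusted p 0.00605) in Mdr2-KO. Both anaphylatoxin receptors were therefore called or not by the presence of wild-type replicate 1. Leaving out wild-type replicate 3 moved the values the other way. C3ar1 then changed by 0.25 in the double knockout (limma adjusted p 0.734) and 0.08 in Mdr2-KO (limma adjusted p 0.979). For C5ar1 the limma adjusted p was then 0.851 in the double knockout and 0.961 in Mdr2-KO. C5ar1 was dimmer than the median gene: its mean over all arrays was 5.05, and 40.3% of genes had a lower mean. Markers of monocytes and recruited macrophages had array means of 6.83 to 7.32 in the double knockout, 6.68 to 7.25 in Mdr2-KO and 6.32 to 6.64 in wild type. Against wild type 7 of 7 had values above 0 in the double knockout and 6 of 7 in Mdr2-KO, beside 9928 and 9638 of all 19938 genes. Of the 7, 2 (Cd9 and Gpnmb) were called higher in each knockout group. Of all genes 2.91% were called higher in the double knockout and 0.948% in Mdr2-KO. The part of these markers in the receptor values was not tested.

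The values of Fcna, Cfp and Itgb2 depended on wild-type replicates 1 and 3. Fcna, a soluble lectin that activates the MASP proteases, read 7.31, 7.53, 7.27 and 7.69 in double-knockout livers, 7.24, 7.40, 7.51 and 7.80 in Mdr2-KO livers, and 8.25, 8.02 and 7.46 in wild-type livers. Its changes were -0.46 ± 0.18 in the double knockout (limma adjusted p 0.214) and -0.42 ± 0.18 in Mdr2-KO (limma adjusted p 0.439), with wild-type replicate 3 among the knockout arrays. Cfp, which stabilises the alternative convertase, read 7.47, 7.68, 7.32 and 7.52 in double-knockout livers, 7.12, 7.62, 7.73 and 7.82 in Mdr2-KO livers, and 8.63, 8.03 and 7.48 in wild-type livers. Again only wild-type replicate 3 lay inside the knockout range, and the changes were -0.55 ± 0.22 in the double knockout (limma adjusted p 0.235) and -0.48 ± 0.22 in Mdr2-KO (limma adjusted p 0.513). Itgb2, the shared beta chain of leukocyte integrins, read 7.24, 7.21, 7.16 and 7.03 in double-knockout livers, 6.92, 7.02, 7.48 and 7.26 in Mdr2-KO livers, and 8.002, 7.92 and 6.92 in wild-type livers. Its changes were -0.45 ± 0.21 in the double knockout (limma adjusted p 0.333) and -0.44 ± 0.21 in Mdr2-KO (limma adjusted p 0.53). Leaving out wild-type replicate 3 brought Fcna (-0.68 ± 0.16, limma adjusted p 0.0437) and Cfp (-0.84 ± 0.20, limma adjusted p 0.0486) under the threshold in the double knockout. Itgb2 then passed in the double knockout (-0.80 ± 0.14, limma adjusted p 0.0107) and in Mdr2-KO (-0.79 ± 0.14, limma adjusted p 0.0224). Without wild-type replicate 1 the double-knockout changes shrank to -0.29 for Fcna, -0.26 for Cfp and -0.26 for Itgb2. Their limma adjusted p-values were then 0.624, 0.712 and 0.769. In Mdr2-KO the changes of Fcna, Cfp and Itgb2 shrank to -0.25, -0.19 and -0.25. Itgam, the alpha chain of complement receptor 3, changed by 0.16 in the double knockout and 0.29 in Mdr2-KO, values that turned to -0.27 and -0.14 without wild-type replicate 3. Its level was also below that of the median gene, with 49.5% of genes at a lower mean.

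**Figure D4:**
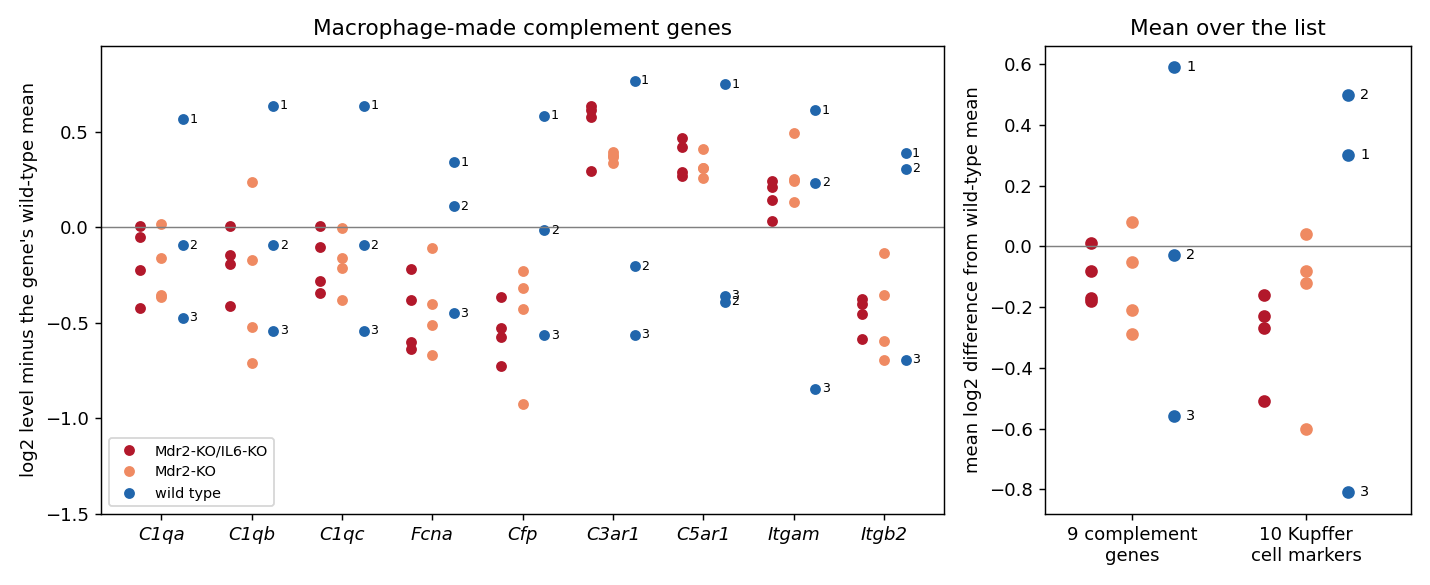
Left, log2 level of the 9 macrophage-made complement genes on each array as the difference from the gene's wild-type mean, with wild-type replicates numbered; right, the mean of these differences over the 9 genes and over 10 Kupffer cell markers on each array. Wild-type replicates 1 and 3 lie on opposite sides of the knockout arrays in the mean over the 9 genes, at 0.59 and -0.56.

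Compared directly between the knockout groups, none of the macrophage-made genes was called. Their changes in the double knockout against Mdr2-KO lay between -0.13 and 0.16 (median 0.01), and the arrays of all 9 overlapped. The 95% interval for C3ar1, the gene of this class with the lowest p there, was -0.28 to 0.61.

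Of 30 further genes of the pathway on a second list, 25 had a probe set of their own, and the rest were not analysed here. In the double knockout against wild type 1 of the 25 rose, Cd93, and 2 fell, C4a and Colec10, where 4.19% of all genes were called (2.91% higher, 1.28% lower). In Mdr2-KO against wild type 1 fell, Colec10, and none rose, where 1.26% of all genes were called (0.948% higher, 0.316% lower). None was called between the knockout groups, where 2 of 25, C4a and Cpn2, were lower at an unadjusted p under 0.05, as were 2.04% of all genes. Colec10, a liver collectin that works with the MASP proteases, read 6.71, 6.86, 6.72 and 6.97 in double-knockout livers, 6.54, 7.01, 6.55 and 6.81 in Mdr2-KO livers, and 7.54, 7.88 and 7.19 in wild-type livers. All knockout arrays lay below all wild-type arrays, at 1.65-fold lower in the double knockout (-0.72 ± 0.15, limma adjusted p 0.0177) and 1.75-fold lower in Mdr2-KO (-0.81 ± 0.15, limma adjusted p 0.0191). Its call in the double knockout was lost without wild-type replicate 1 or 2 or double-knockout replicate 1 or 3 (limma adjusted p 0.053 to 0.0805). Its call in Mdr2-KO was lost without wild-type replicate 1 or 2 or Mdr2-KO replicate 1 or 3 (limma adjusted p 0.0558 to 0.0899).

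Cd93, a surface protein of endothelial and myeloid cells once proposed as a C1q receptor, read 6.52, 6.35, 6.65 and 6.17 in double-knockout livers, 5.93, 6.14, 6.39 and 6.23 in Mdr2-KO livers, and 5.75, 5.58 and 5.52 in wild-type livers. Both knockout groups lay above wild type, with a 1.75-fold rise in the double knockout (0.81 ± 0.13, limma adjusted p 0.00272) and a change of 0.56 ± 0.13 in Mdr2-KO (limma adjusted p 0.0581). Endothelial markers had array means of 7.58 to 7.81 in the double knockout, 7.46 to 7.65 in Mdr2-KO and 7.08 to 7.30 in wild type, with Lyve1 and Cd34 of 6 called higher in the double knockout and Cd34 in Mdr2-KO. Their part in the Cd93 change was not tested. Cpn2, a subunit of the carboxypeptidase that inactivates the C3 and C5 fragments, read 7.52, 7.66, 7.71 and 7.63 in double-knockout livers, 7.80, 7.71, 7.99 and 7.87 in Mdr2-KO livers, and 7.92, 7.90 and 8.03 in wild-type livers. It changed by -0.21 ± 0.08 in the double knockout against Mdr2-KO, with an unadjusted p of 0.0222.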

How the data were processed

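The authors deposited log2 expression levels, and per the submitters' processing notes RMA and Partek were used; versions and settings are not given in the sources used here. That table held 35557 probe sets on 11 arrays (array medians 5.09 to 5.23) and was used without further normalization. Gene names came from the platform annotation, with symbols updated against a RefSeq table of GRCm38.p6 (19856 genes matched). Of the probe sets 21789 had 1 symbol, 1621 several and 12147 none. Genes were tested on the probe set with 1 symbol and the highest mean, which left 19938.

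A single model in limma 3.58.1 (R 4.3.3) was fitted to the 11 arrays, with 3 group means and 3 contrasts. Two-sided p-values came from eBayes and were adjusted by Benjamini-Hochberg over the 19938 genes, with a threshold of 0.05. Group errors are SDs over arrays, and errors of changes are SEs of the model. The fit was tested on simulated data. Groups came from the genotype labels, which name no batch, litter or pairing.

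The complement genes, the marker lists and the further pathway genes were chosen with earlier results of these data known. Genes given on every array were those called, those with the lowest p of their role or source, and those whose arrays did not overlap between the knockout groups, or between wild type and both of them. C2, Clu, C1qa, C5ar1 and Cfp were added after their values were seen. The 18 alternatives covered scaling, probe set choice, brightness, weights and each array left out in turn. Every complement gene measured had a single probe set with 1 symbol, so probe set choice could not change their levels. Motifs were searched in RefSeq promoter windows.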

Additional observations from a re-analysis of the deposited data

Results flagged for a closer look

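Of 62 groups of 4 arrays examined for single arrays far from the rest, 3 had a gap to the nearest array, as a share of the group's range, above Dixon's critical value of 0.829. Chance gives about 1 in 20 such groups. All 3 lay in double-knockout replicate 4. C7 was lowest there, at 6.08 against 6.48 to 6.51 on the other arrays of the group (gap share 0.931). C1ra was highest, at 7.11 against 6.95 to 6.96 (gap share 0.958). C8g was highest, at 10.72 against 10.59 to 10.60 (gap share 0.910).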

How the results depend on the processing

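The 18 alternatives were run on 55 single-gene changes. Averaging the probe sets of a gene could not move any of these, since each gene had a single probe set. C5ar1 and Itgam had 17 in each comparison with wild type, since they were not among the genes brighter than the median. Of the values, 927 kept their direction and side of the threshold, 30 came under it, 18 lost their call and 11 turned sign. The number of genes called in the double knockout against wild type was 1341 with array weights and 464 to 989 with 1 array left out. In Mdr2-KO against wild type it was 410 with array weights, 138 with only those groups fitted and 148 to 323 with 1 array left out. Between the knockout groups it was 4 with only genes brighter than the median, 2 with median centring, 2 with a trended robust eBayes step, 6 with array weights and 1 to 5 with 1 array left out. Of the 31 complement genes, 2 to 5 were called in the double knockout against wild type with 1 array left out. In Mdr2-KO against wild type 1 was called with only brighter genes, 1 with the trended robust step (C4b both times, at limma adjusted p-values of 0.042 and 0.0488), 2 with array weights (C4b and C6) and 0 to 2 with 1 array left out. Between the knockout groups 0 were called with any array left out. Of the further pathway genes, 2 were called in Mdr2-KO against wild type with only brighter genes, 2 with the trended robust step, 2 with array weights, 0 with only those groups fitted and 0 to 2 with 1 array left out, and in the double knockout 2 to 4. The call of Colec10 in Mdr2-KO was lost with only those groups fitted (limma adjusted p 0.0849). Signs turned without wild-type replicate 1 for C1qa, C1qb and C1qc, whose changes with 1 array left out ran from -0.41 to 0.11, -0.46 to 0.13 and -0.46 to 0.13 in the double knockout and from -0.45 to 0.07, -0.57 to 0.02 and -0.46 to 0.12 in Mdr2-KO. Itgam turned without wild-type replicate 3 (-0.27 to 0.46 in the double knockout, -0.14 to 0.59 in Mdr2-KO). Between the knockout groups C6 turned with array weights (-0.01) and without Mdr2-KO replicate 2 (-0.03 to 0.14 with 1 array left out), and C7 without Mdr2-KO replicate 4 (-0.00 to 0.31). The cause was not tested. No paired analysis was possible because the labels give the groups no shared replicate numbers, and replicates were numbered in accession order only. Detection above background was not assessed.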

Other observations

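Among the further pathway genes, Vsig4, a receptor for C3 fragments on Kupffer cells, read 8.81, 9.26, 8.24 and 8.71 in double-knockout livers, 8.50, 8.51, 9.02 and 8.85 in Mdr2-KO livers, and 9.87, 8.63 and 6.60 in wild-type livers. Its SD was 0.419 in the double knockout, 0.259 in Mdr2-KO and 1.65 in wild type, and the 95% interval of its change in the double knockout against wild type ran from -0.75 to 1.52. Serping1, which encodes the inhibitor of the C1 proteases, read 11.71, 11.59, 11.74 and 11.66 in double-knockout livers, 11.93, 11.68, 11.82 and 11.94 in Mdr2-KO livers, and 11.91, 11.83 and 12.04 in wild-type livers. Every double-knockout array lay below every wild-type array, with a change of -0.25 ± 0.09 that did not pass (limma adjusted p 0.179), and the change against Mdr2-KO was -0.17 ± 0.08 (unadjusted p 0.0695). Both genes were picked after their values were seen. Vsig4 is also among the 10 Kupffer cell markers described earlier, so its spread is not separate from theirs.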
